A study of Mus musculus with 5 samples.

Results

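The genes described here handle arginine, nitric oxide, polyamines and itaconate: Nos2, Arg1, Arg2, Slc7a2, Ass1, Asl, Gch1, Odc1 and Acod1. These 9 genes were chosen by name, and all 9 were found by symbol among the 46983 genes that each count table lists. They were followed in 5 RNA-seq libraries made from orthotopic EO771 tumours, a mouse mammary carcinoma line, in mice of the strain labelled C57/BL6. In 2 libraries regulatory T (Treg) cells had been ablated with diphtheria toxin, given as 2 doses of 50 µg per kg with sorting 4 days after treatment, and the 3 control libraries came from tumours left untreated. The allele that makes Treg cells sensitive to the toxin and the age of the mice are not given in the sources used here. Because the controls received no toxin, an effect of the toxin and an effect of Treg loss cannot be told apart. The labels do not tell whether replicate libraries represent different animals. Their spread, and every p-value resting on it, may therefore be technical.

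Macrophages can send arginine along competing routes. Inducible nitric oxide synthase turns it into nitric oxide and citrulline, a route associated with interferon-γ and microbial stimuli, whereas arginase turns it into ornithine and urea, a route associated with interleukin-4 and with many tumours, and ornithine then feeds polyamine and proline synthesis. Itaconate, made from the citric acid cycle intermediate cis-aconitate, is another product of inflammatory macrophages and inhibits succinate dehydrogenase.

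The libraries are labelled as sorted tumour-associated macrophages, but their transcripts went against a pure macrophage sample. Per kilobase of exon, 12 fibroblast markers together had 1763 to 1998 CPM in the 5 libraries, against 81.14 to 155.2 for 15 mature macrophage markers. Much of the fibroblast sum was 1 gene, Col3a1, at 760.7 to 973.5. Others of that list were far lower, such as Pdgfra at 7.755 to 10.07 and Fap at 0.3197 to 0.4553. The sums therefore do not give shares of cells. On the same scale 7 epithelial and mammary tumour markers together had 170.8 to 210 CPM. CPM stands for counts scaled to 1000000 per library, after the TMM correction of library sizes. In bulk RNA, fewer cells of a type and less RNA per cell cannot be told apart. The sort had kept CD45+ CD11B+ Ly6G- F4/80+ cells. Summed CPM of the macrophage markers was 298 to 310.3 in controls and 161.6 and 182.2 after ablation, with 11 of the 14 tested lower. The sum of 11 T cell markers was 14.91 to 17.88 in controls and 48.86 and 52.88 after ablation, with 10 higher. The 6 natural killer cell markers together had 14.44 to 17.23 CPM in controls and 57.18 and 57.78 after ablation, with 4 higher. Gzmb alone had 4.232 to 5.509 CPM in controls and 29.69 and 28.36 after ablation. Ncr1 and Klrb1c from this list were not called, and their groups overlapped. B cell markers together had 13.47 to 16.37 CPM in controls and 53.59 and 65.93 after ablation. Of these lists, 0 markers were at 0 counts in all 5 libraries. The part of these shifts in the results below was not tested. Library totals ran from 13122668 to 20156835 counts, and 3 counts, the lower limit of what a library resolves, corresponded to between 0.1502 and 0.2263 CPM.

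RefSeq promoter sequence (GRCm38.p6) was at hand for 4 of the 9 genes: Acod1, Odc1, Ass1 and Gch1. The stretches before Acod1 and Odc1 are shown because these are the members among the 4 that rose after ablation, and they differ in kind. Both are printed 5′ to 3′ on the plus strand and end at the last base before the gene starts in the annotation of the count tables. Capitals mark an interferon regulatory factor (IRF) half-site in Acod1 and GC boxes in Odc1.
Acod1, chr14:103046762-103046976: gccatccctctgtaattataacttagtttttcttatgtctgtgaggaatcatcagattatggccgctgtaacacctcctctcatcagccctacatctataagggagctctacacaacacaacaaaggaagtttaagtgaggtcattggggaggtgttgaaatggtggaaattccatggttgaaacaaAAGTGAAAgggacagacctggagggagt
Odc1, chr12:17544623-17544872: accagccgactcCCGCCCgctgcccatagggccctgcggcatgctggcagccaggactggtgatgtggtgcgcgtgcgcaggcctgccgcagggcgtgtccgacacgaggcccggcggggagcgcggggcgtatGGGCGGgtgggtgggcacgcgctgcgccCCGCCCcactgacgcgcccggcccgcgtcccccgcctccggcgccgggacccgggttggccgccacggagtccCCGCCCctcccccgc
Over the 250 bases before the RefSeq start, 44.4% of the bases upstream of Acod1 were G or C, against 80% for Odc1. Motifs were searched on both strands in these windows and in all 32851 promoter windows of the same length. Acod1 held 1 match to the IRF half-site AANNGAAA, 63 to 56 bases before its RefSeq start, a motif found in 21.3% of all windows. It also held TATAAA 28 to 23 bases before that start (12.4% of windows), in the 35 bases that are not printed because the count tables place them inside the gene. Odc1 held 4 GC boxes (GGGCGG, 32.7% of windows). Ass1 had 1 GC box and 1 E-box (CACGTG, 6.02% of windows), a palindrome that matches on both strands at the same place. Gch1 had 2 GC boxes, TATAAA on the minus strand 188 to 183 bases before the start, and the NF-kB consensus (7.25% of windows) in its last 10 bases, also matching on both strands. The STAT site TTCNNNGAA and the core of the interferon-stimulated response element, GAAA repeated after 2 arbitrary bases and so containing the IRF half-site, did not occur in these 4 windows; they lie in 7.02% and 2.98% of all windows. These are matches of letters and not measured binding.

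After ablation Nos2 rose most among these genes, Acod1 and Odc1 rose as well, and Arg1 did not pass as changed. The test was the quasi-likelihood F test of edgeR over 14580 genes, with Benjamini-Hochberg adjustment over all of them and a threshold of 0.05. Of the 9 members 8 passed the filter on low counts, Arg2 being too low. Among the 8, 3 were called higher and 5 did not pass, where 13.5% of all genes tested were called higher and 12.3% lower. With edgeR 0 members were lower; at an unadjusted p under 0.05 the number was 1 (Asl), and it was 0 with DESeq2 and with limma-voom. The median log2 fold change of the 8 was 0.18, and that of all genes tested −0.01. Without control replicate 2 only Nos2 of the 3 kept its call.

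**Figure D1:**
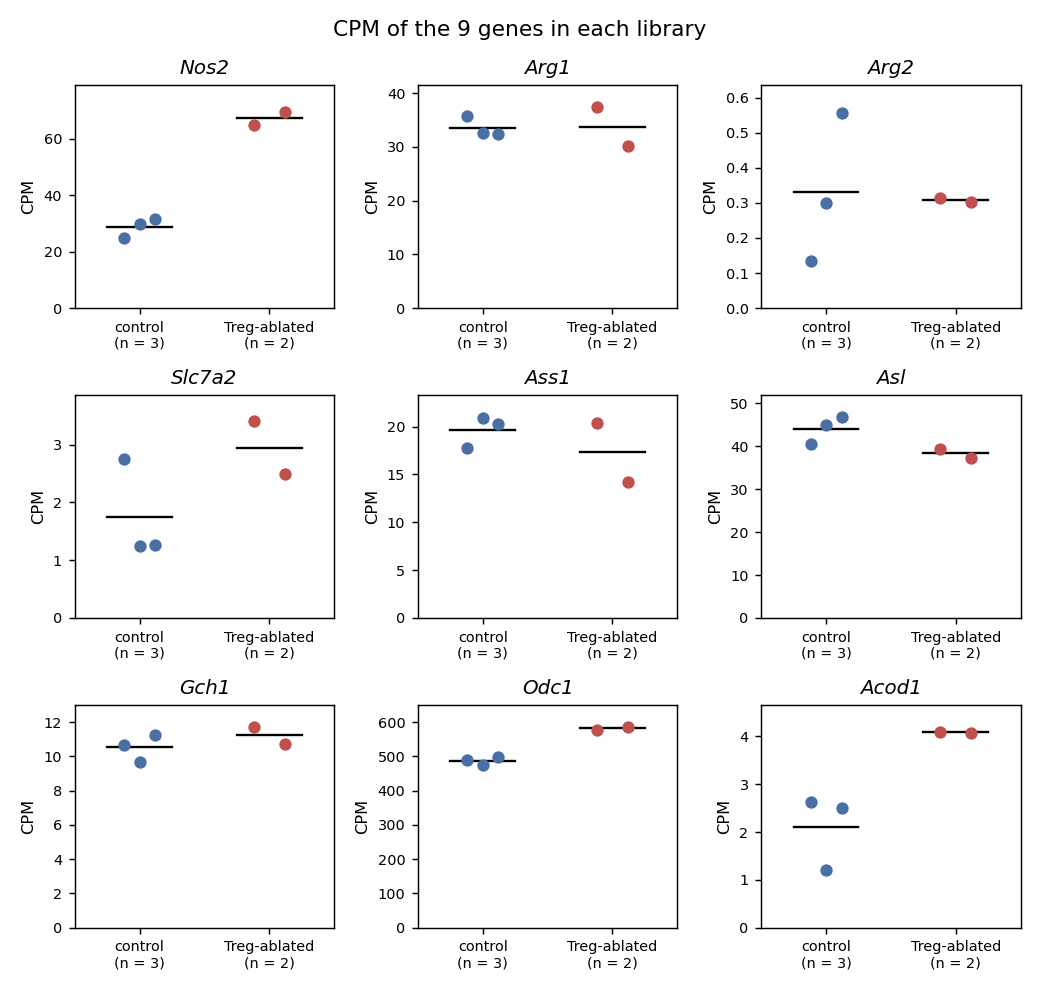
CPM of the 9 genes (vertical axes, each from 0) in the 3 control and 2 Treg-ablated libraries; points are libraries and bars group means. Both Treg-ablated libraries lie above all controls for Nos2, Odc1 and Acod1 and below them for Asl, while the groups overlap for the other 5 genes. The groups also did not overlap for 41 of the 69 other pathway genes tested, so separation alone says little about a gene. The share without overlap among all genes tested was not counted.

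Nos2 encodes inducible nitric oxide synthase (ENSMUSG00000020826, chromosome 11, 78920787 to 78960254, plus strand, GRCm38). It had 65 and 69.62 CPM in Treg-ablated replicates 1 and 2, from 1031 and 923 counts. Control replicates 1, 2 and 3 had 24.86, 29.7 and 31.63 CPM, from 370, 593 and 454 counts. Both Treg-ablated libraries thus had more than 2 times the level of any control library, and the groups did not overlap. The group values were 67.31 ± 3.27 CPM (SD, n = 2) and 28.73 ± 3.489 CPM (SD, n = 3). Nos2 rose 2.34-fold, with a log2 fold change of 1.23 (SE 0.0966, 95% interval 1.01 to 1.44, edgeR adjusted p = 6.037e-05). Only 1.56% of the genes tested had a log2 fold change at least as high. Nos2 was called higher in all 13 alternative fits, between 1.14 and 1.34 on the log2 scale. The other synthase genes were hardly present: neuronal Nos1 had 1 count over the Treg-ablated and 4 over the control libraries, and endothelial Nos3 had 14 and 30. Scaled by library size, Nos3 stood at 0.7886 of its control level (exact 95% interval for counting error 0.3864 to 1.534).

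Arginase 1, the cytosolic arginase (Arg1, ENSMUSG00000019987, chromosome 10, 24915208 to 24927470, minus strand), had 37.39 and 30.17 CPM in Treg-ablated replicates 1 and 2. Its control values were 35.81, 32.65 and 32.33 CPM. The 2 Treg-ablated libraries lay on either side of all 3 controls, so the groups overlapped. The log2 fold change was 0.01 (SE 0.1012, 95% interval −0.21 to 0.24), and the edgeR adjusted p was 0.9374. On a linear scale this interval runs from 0.8643-fold to 1.178-fold. The sign turned with the setting, from −0.15 without Treg-ablated replicate 1 to 0.16 without Treg-ablated replicate 2.

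Arg2, the mitochondrial arginase gene (ENSMUSG00000021125, chromosome 12, 79130777 to 79156301, plus strand), was close to the limit of detection. Treg-ablated replicates 1 and 2 gave 5 and 4 counts of Arg2, and control replicates 1, 2 and 3 gave 2, 6 and 8. The scaled ratio of the summed counts was 0.9505 (exact 95% interval 0.3702 to 2.284), so these counts could not resolve a difference. Of the 1428 exonic bases of Arg2, 285 also belong to Vti1b on the other strand, and the counting recorded no strand. Arg1 made up 98.31% to 99.63% of the arginase counts in the 5 libraries. The widest exact (Clopper-Pearson) 95% interval of these shares, in control replicate 3, was 96.69% to 99.27%.

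The balance between the routes was read as the ratio of Nos2 to Arg1 CPM within each library. Treg-ablated replicates 1 and 2 had ratios of 1.739 and 2.307, and control replicates 1, 2 and 3 had 0.6942, 0.9095 and 0.9784. Nos2 counts exceeded Arg1 counts in both Treg-ablated libraries and in 0 of the 3 controls. The log2 ratio was 1.0 ± 0.29 (SD, n = 2) after ablation and −0.23 ± 0.26 (SD, n = 3) in controls, a difference of 1.23. The exact two-sided permutation test gave p = 0.2, which is the smallest value that 2 against 3 libraries allow. Nos2 transcripts are longer, so per kilobase of exon Arg1 remained above Nos2 in all 5 libraries, with ratios of 0.6122 and 0.8125 after ablation and 0.2444 to 0.3445 in controls. Set against the summed CPM of the 15 macrophage markers, which were lower after ablation, Nos2 was 39.37 per 100 in the Treg-ablated and 9.453 per 100 in the control libraries on average. On that scale Arg1 was 19.59 against 11.05 per 100. Other members that did not pass as changed were higher on it too, among them Gch1 (6.531 against 3.464) and Asl (22.36 against 14.52). A higher value on this scale thus reflects the lower marker sum as well. Which cells made the Nos2 and Arg1 transcripts was not tested.

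**Figure D2:**
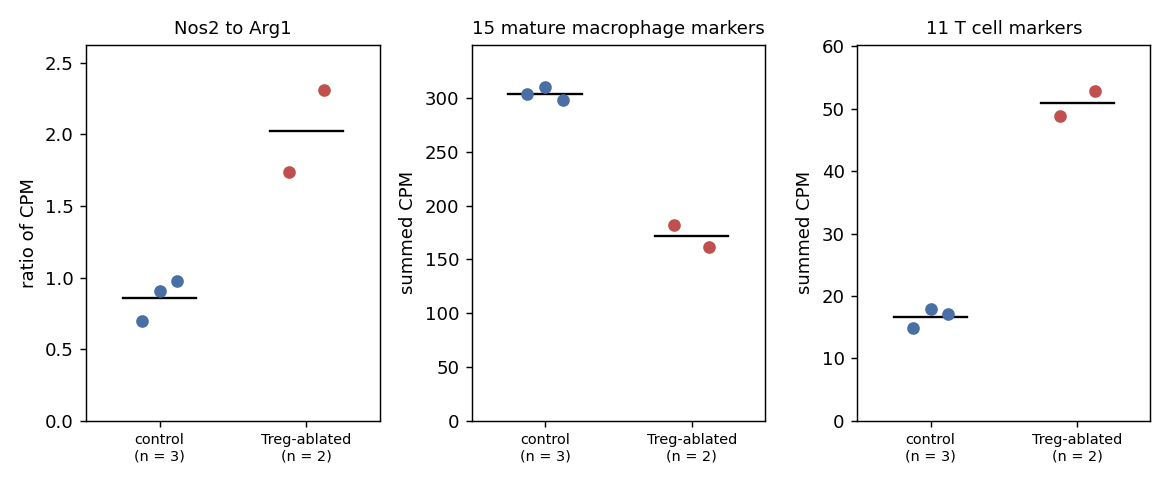
Ratio of Nos2 to Arg1 CPM (left), summed CPM of 15 mature macrophage markers (middle) and of 11 T cell markers (right) in each library; points are libraries, bars are group means and all axes start at 0. The ratio lies above 1 in both Treg-ablated libraries and below 1 in the 3 controls, while the macrophage sum is lower and the T cell sum higher after ablation.

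Slc7a2 encodes a cationic amino acid transporter that brings arginine into activated macrophages (ENSMUSG00000031596, chromosome 8, 40862396 to 40922308, plus strand). It was low, at 3.404 and 2.489 CPM after ablation, from 54 and 33 counts. Controls had 2.754, 1.252 and 1.254 CPM, from 41, 25 and 18 counts. Control replicate 1 lay between the Treg-ablated libraries, and the other 2 controls lay below both. The log2 fold change of 0.79 (SE 0.3355, 95% interval 0.05 to 1.53) did not pass, with an edgeR adjusted p of 0.1083. It passed without control replicate 1 (log2 fold change 1.25, adjusted p = 0.01438) and when every gene with at least 1 count anywhere was kept (0.77, adjusted p = 0.01091). Among 5 other arginine transporter genes tested, 1 was lower and 4 did not pass. The lower one was Slc7a6, a light chain of an amino acid exchanger, at 73.8 ± 3.265 (SD, n = 2) against 85.71 ± 3.064 CPM (SD, n = 3). Its log2 fold change was −0.22 (edgeR adjusted p = 0.04404), and the call ended in 7 of the 13 alternatives, among them the fits without either Treg-ablated library and without control replicate 1 or 2. Slc7a1, the transporter of most cells, was far more abundant per kilobase than Slc7a2 and did not pass (log2 fold change 0.12, SE 0.0823).

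Citrulline left by nitric oxide synthesis can be rebuilt into arginine by argininosuccinate synthase (Ass1) and argininosuccinate lyase (Asl), and neither gene passed as changed. Ass1 (ENSMUSG00000076441, chromosome 2, 31470207 to 31520672, plus strand) had 20.43 and 14.26 CPM after ablation. Its controls had 17.8, 20.88 and 20.27 CPM. Treg-ablated replicate 2 was the lowest of the 5 libraries and replicate 1 lay among the controls. The log2 fold change was −0.17 (SE 0.1435, 95% interval −0.49 to 0.14, edgeR adjusted p = 0.4021). It was −0.47 without Treg-ablated replicate 1, where it passed (adjusted p = 0.03409), and 0.06 without Treg-ablated replicate 2.

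Asl (ENSMUSG00000025533, chromosome 5, 130011258 to 130029247, minus strand) had 39.47 and 37.26 CPM in the Treg-ablated libraries. Controls had 40.51, 45.07 and 46.82 CPM. The groups did not overlap, but control replicate 1 was close to Treg-ablated replicate 1. Its log2 fold change of −0.20 (SE 0.0845, 95% interval −0.39 to −0.01) had an unadjusted p of 0.037 and an edgeR adjusted p of 0.1038. It did not pass in any of the 13 alternatives, and with the GC content offset it was −0.06. Of 8 other genes of the urea cycle, ornithine transport and creatine synthesis, 4 were tested. Gatm, whose enzyme moves the amidino group of arginine to glycine for creatine, rose 1.341-fold from 32.31 ± 0.9766 (SD, n = 3) to 43.25 ± 1.96 CPM (SD, n = 2), with an edgeR adjusted p of 0.003592. The hepatic urea cycle genes Cps1 and Otc had 0 counts in all 5 libraries.

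Gch1 encodes GTP cyclohydrolase, the first enzyme in the synthesis of tetrahydrobiopterin, a cofactor that nitric oxide synthases need (ENSMUSG00000037580, chromosome 14, 47153895 to 47189413, minus strand). It had 11.73 and 10.71 CPM after ablation. Controls had 10.68, 9.665 and 11.22 CPM, so control replicate 3 lay between the Treg-ablated libraries. The log2 fold change was 0.10 (SE 0.1185, 95% interval −0.16 to 0.36, edgeR adjusted p = 0.5597). In fold terms this interval runs from 0.8952 to 1.287. Of 7 other genes tested from the cofactor's synthesis and recycling, 3 were lower and 4 did not pass. Spr, the reductase of the last step, fell from 72.32 ± 4.31 (SD, n = 3) to 55.35 ± 5.092 CPM (SD, n = 2), a log2 fold change of −0.38 (edgeR adjusted p = 0.008853). Gchfr, whose product restrains GTP cyclohydrolase, had a log2 fold change of −0.42 (edgeR adjusted p = 0.04771). Qdpr, which regenerates the cofactor, had −0.35 (edgeR adjusted p = 0.04357). These last calls were close to the threshold and ended in 8 and 7 of the 13 alternatives, including those without Treg-ablated replicate 2 and without control replicate 2 or 3. The call of Spr ended without control replicate 2.

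Odc1 encodes ornithine decarboxylase, which turns ornithine into putrescine and so starts polyamine synthesis (ENSMUSG00000011179, chromosome 12, 17544873 to 17551502, plus strand). It was by far the most abundant member, with 578.1 and 586.1 CPM in the Treg-ablated libraries. Controls had 488.7, 474.5 and 496.7 CPM. The rise was small and the groups did not overlap. Odc1 rose 1.196-fold, a log2 fold change of 0.26 (SE 0.0644, 95% interval 0.12 to 0.40, edgeR adjusted p = 0.01573). About 21% of all genes tested had a log2 fold change at least as high. The call ended without Treg-ablated replicate 2 (adjusted p = 0.05364) and without control replicate 2 (adjusted p = 0.09234).

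Of 13 other polyamine genes tested 3 rose and 10 did not pass. Amd1, the decarboxylase of S-adenosylmethionine, rose from 46.86 ± 1.647 (SD, n = 3) to 59.9 ± 0.09794 CPM (SD, n = 2), which is 1.279-fold (edgeR adjusted p = 0.005509). Amd1 has a close copy, Amd2, so shared reads make its value uncertain. Spermine synthase (Sms) rose 1.242-fold (edgeR adjusted p = 0.01841). Azin1, an inhibitor of the antizymes that send ornithine decarboxylase to degradation, rose 1.199-fold (edgeR adjusted p = 0.01766). The calls of Sms and Azin1 each ended in 4 of the 13 alternatives, the GC content offset and the fit without control replicate 2 among them, and also without Treg-ablated replicate 1 for Sms and 2 for Azin1. The antizyme gene Oaz1 (log2 fold change 0.22) and spermidine synthase (Srm, −0.05) did not pass. In the proline branch, 2 of 6 genes tested were lower and 4 did not pass. Aldh18a1, which makes the proline precursor from glutamate, fell from 262 ± 9.199 (SD, n = 3) to 176.2 ± 1.165 CPM (SD, n = 2), a log2 fold change of −0.57 (edgeR adjusted p = 0.000449). Ornithine aminotransferase (Oat), which links ornithine to proline, did not pass (log2 fold change 0.02, SE 0.0652).

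Acod1 encodes the decarboxylase that makes itaconate from cis-aconitate (ENSMUSG00000022126, chromosome 14, 103046977 to 103056573, plus strand). It had 4.098 and 4.073 CPM after ablation, from 65 and 54 counts. Controls had 2.62, 1.202 and 2.508 CPM, from 39, 24 and 36 counts. The Treg-ablated libraries agreed closely and lay above all controls, among which replicate 2 was by far the lowest. Acod1 rose 2-fold, with a log2 fold change of 1.0 (SE 0.2843, 95% interval 0.37 to 1.63, edgeR adjusted p = 0.02683). Without control replicate 2 the log2 fold change was 0.67 and the call ended (adjusted p = 0.07936), and it also ended without Treg-ablated replicate 1 (adjusted p = 0.0523). Neutrophils can express Acod1 and Arg1 too. Summed CPM of 12 neutrophil markers was 8.848 to 9.916 in controls and 10.56 and 12.67 after ablation, with Ly6g, which the sort gate excluded, at 0.1891 CPM or less. Much of this sum was 1 gene, Retnlg, at 4.031 to 4.877 CPM in controls and 7.691 and 5.733 after ablation. Of 4 neutrophil markers tested Retnlg was called higher and 3 did not pass. The part of neutrophils in the result was not tested.

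Of 16 genes tested around citrate, aconitate and succinate, 6 were lower, 2 were higher and 8 did not pass. Ogdh, a subunit of the 2-oxoglutarate dehydrogenase complex, fell from 303 ± 2.035 (SD, n = 3) to 205.2 ± 9.491 CPM (SD, n = 2), a log2 fold change of −0.56 (edgeR adjusted p = 0.0004784). The mitochondrial citrate carrier gene Slc25a1 fell 1.321-fold (edgeR adjusted p = 0.004553). The cytosolic aconitase gene Aco1 fell 1.268-fold (edgeR adjusted p = 0.004285). The catalytic succinate dehydrogenase subunit gene Sdha had a log2 fold change of 0.02 (SE 0.064) and did not pass.

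Genes of signalling known to act on these enzymes moved in both directions. Of 13 tested, 6 were higher, 2 were lower and 5 did not pass. Irf1, a factor needed for Nos2 induction in macrophages, rose 1.665-fold (edgeR adjusted p = 7.948e-05). Nfkb1 and Irf8 rose 1.275-fold and 1.366-fold (edgeR adjusted p = 0.003612 and 0.01054), and the call of Irf8 ended without Treg-ablated replicate 1 (adjusted p = 0.05205). Cebpb, another of the higher genes and also named after its value was seen, rose 1.554-fold (edgeR adjusted p = 0.01127). Its control replicates 1, 2 and 3 were spread, at 31.84, 43.67 and 28.22 CPM, and its call was not followed through the alternatives. The lower ones were Stat6 and Il4ra, the transcription factor and receptor through which interleukin-4 induces Arg1, named after their values were seen. They had log2 fold changes of −0.23 and −0.20 (edgeR adjusted p = 0.03103 and 0.04112), and their calls ended in 6 and 9 of the 13 alternatives, that of Stat6 without any 1 library but Treg-ablated replicate 2 and that of Il4ra without any 1 of the 5. The list on nitric oxide synthases, their regulators and the nitric oxide receptor had 5 genes tested, and each failed to pass. Nosip (log2 fold change −0.19, edgeR adjusted p = 0.09962) had the smallest p. The receptor subunit gene Gucy1b1 had the largest change (log2 fold change 0.96, SE 0.4354), from 5 to 11 counts per library. Counts of calls in these lists are read beside all genes tested, of which 13.5% were higher and 12.3% lower. Over all 69 pathway genes tested besides the members, 12 were higher and 14 lower. These counts were 7 and 4 without control replicate 2, and the lower calls numbered 6 without Treg-ablated replicate 2 and 8 without control replicate 3.

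**Figure D3:**
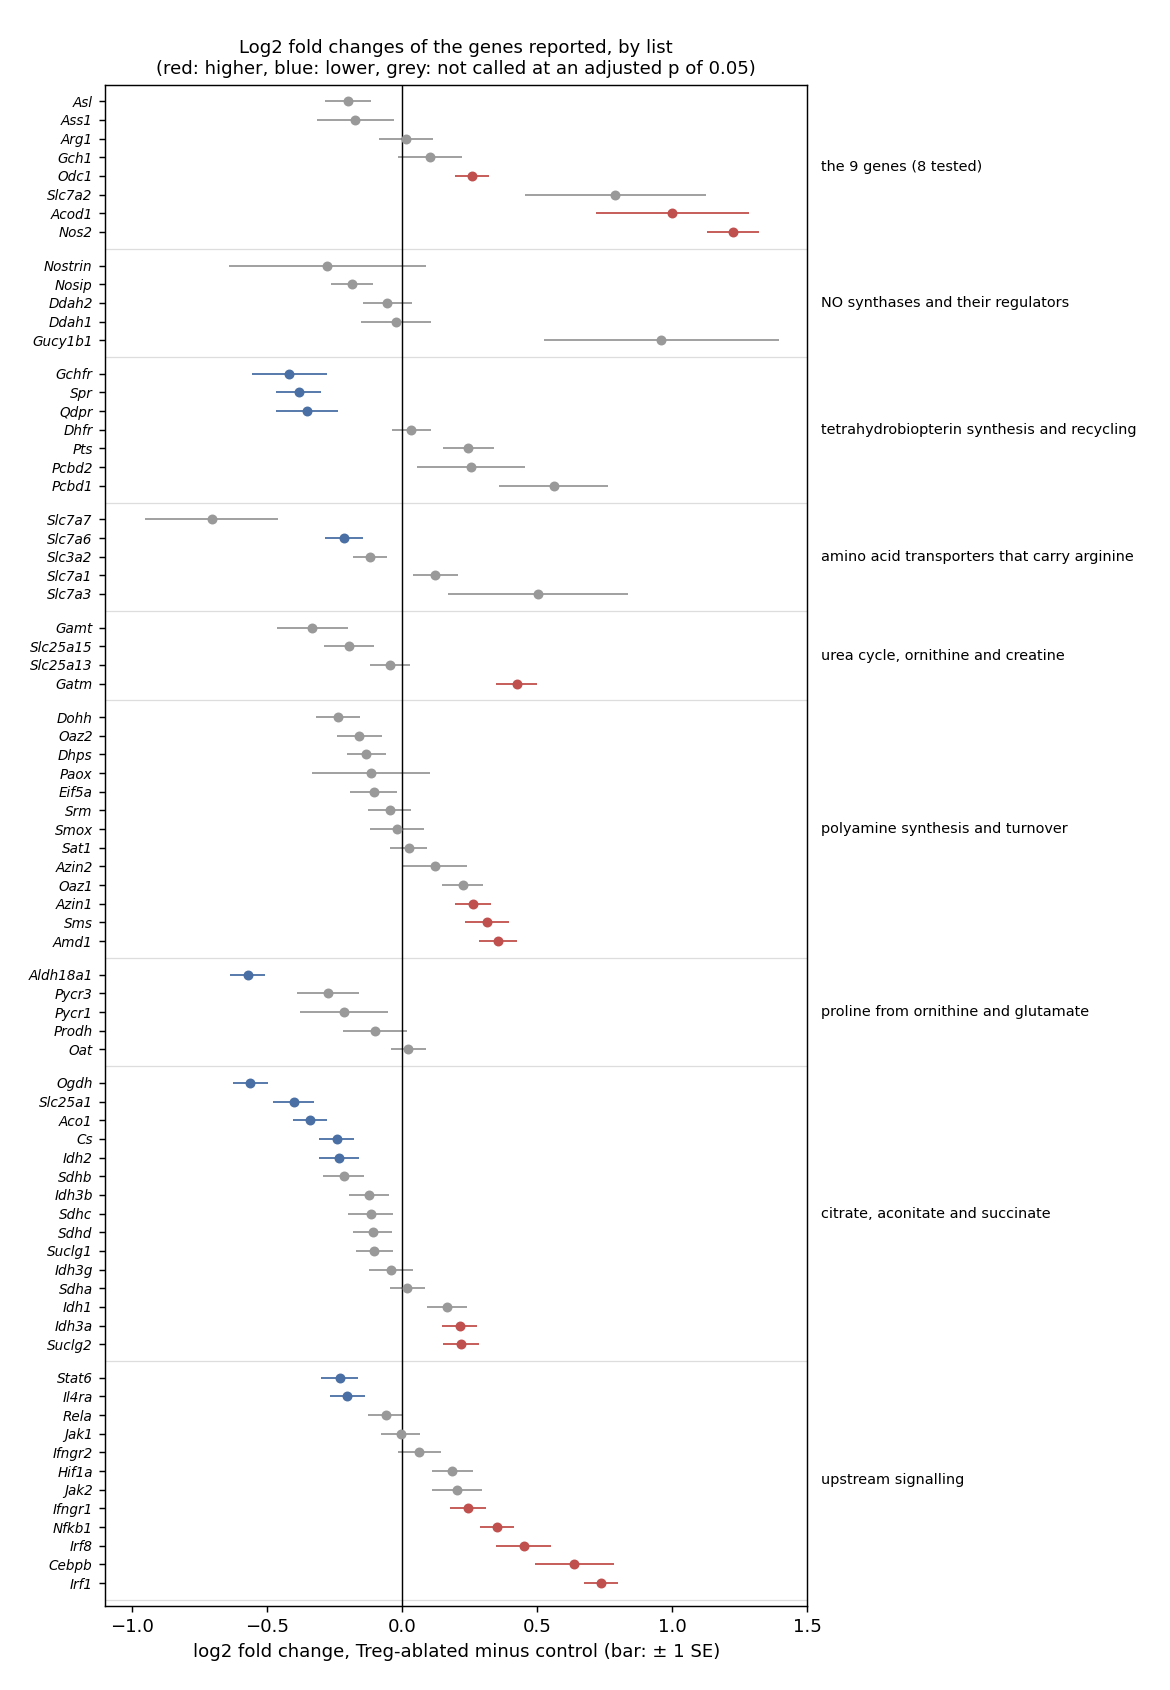
Log2 fold changes (Treg-ablated minus control, horizontal axis) of the 8 members tested and of the other pathway genes reported, grouped by list; bars are ± 1 SE, red marks higher, blue lower and grey not called. Nos2 at 1.23 and Acod1 at 1.0 lie farthest right, and most genes around citrate lie left of 0.

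Levels of different genes were set side by side per kilobase, over the length of all annotated exons of a gene. A transcript can be shorter than that, so the order depends on this length. Before scaling by it, Asl had 44.13 and Arg1 33.6 CPM on average in controls. Per kilobase of exon, Odc1 led in controls at 191.1 ± 4.419 CPM (SD, n = 3). Arg1 followed at 22.76 ± 1.303, then Asl at 9.135 ± 0.6741, Ass1 at 8.141 ± 0.6756 and Nos2 at 6.853 ± 0.8322. Neighbours in this last trio overlapped in range: Asl had 8.386 to 9.691, Ass1 7.375 to 8.651 and Nos2 5.93 to 7.545. Gch1 came next at 3.791 ± 0.284 and Acod1 at 0.8044 ± 0.3006, and Arg2 (0.2316 ± 0.1492) and Slc7a2 (0.192 ± 0.09489) overlapped at the bottom. In the Treg-ablated libraries Nos2 moved from the fifth place to the third, at 16.06 ± 0.78 CPM per kilobase (SD, n = 2), above Asl at 7.941 ± 0.3224 and Ass1 at 7.184 ± 1.807, whose ranges overlapped. Odc1 and Arg1 kept the first and second places, at 228.5 ± 2.233 and 22.89 ± 3.455.

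Among 9218 other genes with a mean log2 CPM of at least 3, the profile over the 5 libraries closest to that of Nos2 was that of Serpina3g, a serine protease inhibitor gene. Likeness was the root mean square difference of log2 CPM after centring each gene on its mean, and it was 0.0504 for Serpina3g. Tgtp2, a GTPase gene with a close copy whose reads may be shared, followed at 0.08859, and Gbp2, a guanylate-binding protein gene, at 0.1071. Serpina3g had 35.87 and 36.66 CPM after ablation and 14.24, 15.98 and 16.44 CPM in controls. Like Nos2 it was lowest in control replicate 1 and highest in Treg-ablated replicate 2. The profiles closest to Arg1 were those of Cyb561, Arfip1 and Adprhl2, with differences of 0.04055, 0.04322 and 0.04661. With 5 libraries many genes share a profile, so this is a description.

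**Figure D4:**
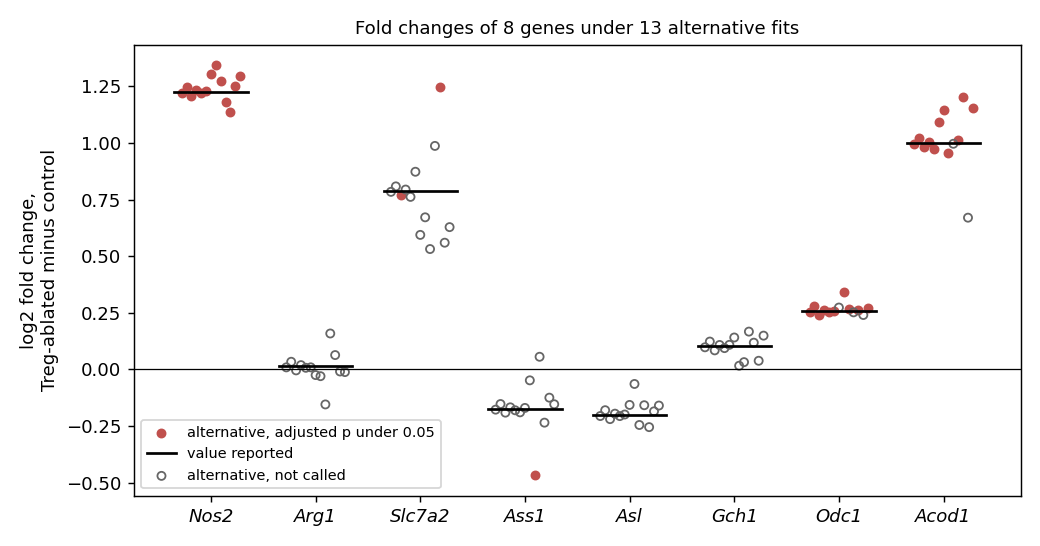
Log2 fold changes (vertical axis) of the 8 members tested under 13 alternative fits (points; filled where the adjusted p is under 0.05) and as reported (bars). Nos2 is filled throughout between 1.14 and 1.34, whereas Arg1 scatters around 0 and Slc7a2 spreads from 0.53 to 1.25.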

How the data were processed

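RNA from cells labelled as sorted macrophages was sequenced in 5 libraries. The deposited fragment counts were made, per the file headers, with featureCounts 1.6.2 over exons of a filtered Ensembl annotation of GRCm38, with no strand or multi-mapping option. FastQC 0.11.5, Trimmomatic 0.33 and DESeq2 1.16.1 are listed in the submitters' processing notes. The counts are whole numbers and not normalized. Groups and replicate numbers came from the titles. Symbols were joined by Ensembl identifier (46488 of 46983 genes).

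Genes were kept by filterByExpr (14580), scaled by TMM and tested with edgeR 4.0.16 in R 4.3.3. Exon lengths are those of the files. The SE was taken from the F statistic, as the size of the log2 fold change over its root. Replicates differed by more than counting noise (chi-square per degree of freedom 4.167 to 7.709). The exact permutation test compared the Nos2 to Arg1 ratio. Alternatives were RLE scaling, library size alone, 2 other filters, DESeq2 1.42.0, limma-voom (limma 3.58.1), the replicate number as a block, a lowess offset on GC content from GENCODE M21 transcripts (known for 99.7% of the genes tested) and leaving out each library. Where 1 Treg-ablated library remained, it was assumed to vary like the controls.

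The members and lists were chosen with earlier results of these data known. Named genes are the members, up to 4 called genes with the smallest p in each pathway list, and the 3 profiles closest to Nos2 and Arg1; others are marked or given as values, and 3 that the rule names are counted but not reported here. Of 77 listed pathway genes 76 were found, 1 of them (Pycr3) under an older symbol; Prmt1 was not used here. The 95% intervals of fold changes come from the edgeR fit and include the spread between replicates. The exact intervals of count ratios and shares and the limit of 3 counts cover counting error only.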

Additional observations from a re-analysis of the deposited data

How the results depend on the processing

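Nos2 passed as higher in all 13 alternative fits, Acod1 in 11 and Odc1 in 10. Over the 5 fits that left out 1 library the members called higher numbered 1 to 4 and those called lower 0 to 1, against 3 and 0. The same fits gave 7 to 11 pathway genes higher and 4 to 12 lower (12 and 14 with all libraries), and 812 to 1687 of all genes higher and 554 to 1538 lower (1971 and 1787). The lowest counts over all genes, 812 and 554, came without control replicate 2, the largest library. Scaled by library size alone 9 pathway genes were lower, and with the GC content offset 8. Arg1, which did not pass in any fit, had log2 fold changes of −0.004 when every gene with a count was kept, −0.0296 with the GC content offset, and −0.15 to 0.16 without 1 library; the cause was not tested. For Ass1 leaving out a library gave −0.4667 to 0.0561. The log2 ratio of Nos2 to Arg1 differed between groups by 1.03 to 1.44 without 1 library and by 1.23 per kilobase. Counts of 2 to 8 in Arg2 limit what can be said of it.

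The replicate numbers come from the titles, and the libraries that share a number did not deviate together (correlation −0.23 for number 1 and −0.02 for number 2), so the numbers were not taken to pair libraries. The deposited files number the Treg-ablated libraries 2 and 3 in place of 1 and 2. Under those numbers the correlations would be 0.02 and −0.20, and a block on them was not fitted. With the replicate block, 1296 of all genes were higher and 1116 lower, 7 pathway genes were higher and 6 lower, and 2 members were higher. Under the block Nos2 and Acod1 passed, Odc1 did not (adjusted p = 0.1072), and Arg1 had a log2 fold change of −0.0247.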
